A study of Mus musculus with 10 samples.

Results

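Chemokines are small secreted proteins that guide leukocytes, and chemokine receptors are the G protein-coupled receptors through which the cells read them. Their transcripts were followed in 5 tissues of young and aged male mice. The members are all genes that a probe set of the array names singly under a symbol of the Ccl, Cxcl, Cx3cl, Xcl, Ccr, Cxcr, Cx3cr or Xcr series. They were 49 genes, 33 ligands and 16 receptors, of 18194 genes, and they were read by 77 of the 34958 probe sets that name 1 gene. Probe sets that name several genes were not used, so Ccl19 and Ccl21, the ligands of Ccr7, have no value here.

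Jejunum, ileum, distal colon, liver and spleen came from ICR mice, an outbred stock, at 4 or at 28 months of age. All mice were male, ate the AIN-93 diet and lived in single cages under specific-pathogen-free conditions. The 28-month groups came from the supplier when 8 months old, and the 4-month groups when 2 months old. RNA was extracted from each mouse, equal amounts were pooled from 6 mice at 4 months or 9 mice at 28 months, and each pool was read on 1 array. Each of the 10 groups is therefore 1 array, the spread between mice is lost in the pool, and the 2 ages of a tissue could not be tested against each other.

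Chemokines bind their receptors in partly overlapping pairs, and a leukocyte moves toward the ligands for which it carries receptors. Homeostatic chemokines place lymphocytes in follicles, T cell zones and mucosal tissue, as Cxcl13 does for B cells through Cxcr5 and Ccl25 does for small intestinal lymphocytes through Ccr9. Inflammatory chemokines recruit effector lymphocytes, monocytes and granulocytes, as Cxcl9 and Cxcl10 do through Cxcr3 and Cxcl1 does through Cxcr2.

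Signals are in arbitrary units after each array was scaled to a trimmed mean of 500. Signals below 111 units, the median of all signals, were set to this floor before ratios were taken. In each tissue, genes whose signal passed the floor at 1 age or both are called measured. Ratios divide the 28-month signal by the 4-month signal, and from 2-fold in either direction a gene is said to have risen or fallen. Where 1 age lay below the floor, a ratio is a bound. Wherever a pair of signals is given, the 4-month array comes first. The only internal error of a ratio is the spread among the probe sets that read a gene. Its median SD on the log2 scale was 0.11 for jejunum, 0.12 for liver, 0.13 for ileum and 0.14 for both distal colon and spleen.

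The tissue labels were borne out by defining genes, with Alb in liver, Fabp6 in ileum, Hoxb13 in distal colon and Ms4a1 in spleen. Several arrays carried other signals beside them. In ileum the summed signal of 9 enterocyte genes went from 157813 to 50812 units, and Lct, lactase, from 14054 to 92.1. Pancreatic acinar genes were present in jejunum at both ages (summed 59943 and 60382 units) and in the 4-month spleen (38884, against 1305 at 28 months). The 3 intestinal arrays of 28 months are titled and numbered apart from the other 7, so in the intestine array set and age cannot be told apart. Hepatocyte genes in liver had 0 of 8 past 2-fold, and colon markers in distal colon 1 of 8 higher and 1 lower. Ileum markers in ileum were higher in 2 of 7 cases. Endothelial genes had none past 2-fold in any tissue, and dendritic cell genes had 1 of 7 lower in spleen and none elsewhere. In all of these tissues, fewer cells of a type and less RNA per cell cannot be told apart.

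Of the 49 genes, 39 were above the floor on at least 1 array and 14 on all 10. They comprised 25 ligands and 14 receptors. The 10 genes below the floor on every array were the ligands Ccl1, Ccl2, Ccl7, Ccl22, Cxcl2, Cxcl3, Cxcl5 and Cxcl15 and the receptors Ccr4 and Ccr8. Among them are the main monocyte attractants Ccl2 and Ccl7 and most ligands of the neutrophil receptor Cxcr2. Spleen had the most measured members, 34, followed by ileum with 31, jejunum and distal colon with 29 each and liver with 23. The difference lay in the receptors, of which 14 were measured in spleen, 9 in each intestinal segment and 4 in liver, whereas ligands numbered from 19 to 22 in every tissue.

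The first comparison asked in which tissue each member was highest. Receptor transcripts were highest in spleen and ligand transcripts were spread over all tissues. Of 14 receptors, 13 had their highest mean signal in spleen, and Ccr10, a receptor of mucosal plasma cells and skin T cells, had it in jejunum. The 25 ligands had theirs in spleen (10 ligands), jejunum (5), ileum (4), liver (4) and distal colon (2). The receptors Ccr3, Ccr7 and Xcr1 and the ligands Ccl3 and Ccl12 were above the floor in spleen only. They could therefore be highest nowhere else. No share over all genes was taken for these counts. The tissue of highest signal was the same at both ages for 30 of the 39 members.

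Each tissue was tested against the mean of the other 4 with limma, in a fit of tissue and age over the 10 arrays with 4 residual degrees of freedom and Benjamini-Hochberg adjustment over 13995 genes. In spleen 20 of the 39 members were higher and 9 lower, where 33.3% and 33.5% of all genes were. Receptors were higher in 13 of 14 cases and lower in none. Of these, Ccr3, Ccr7 and Xcr1 were above the floor in spleen only and so entered the fit through that tissue. Their direction was fixed by this entry, so their calls add nothing to the receptor count. The ligands Ccl3 and Ccl12 also entered through spleen only, and neither passed. Liver had 7 members higher and 21 lower (26.2% and 37.6% of all genes). There 11 of the 14 receptors were called lower, although only 4 receptors were measured in liver. The intestinal segments lay between spleen and liver, with 7 members higher and 11 lower in jejunum (19.4% and 24.7% of all genes), 6 and 10 in ileum (19.4% and 22.9%) and 6 and 11 in distal colon (25.8% and 17.8%). Members below the floor in a tissue at both ages entered at the floor value, so a lower call there reflects signal in other tissues. Ccr3 and Ccr7, seen in spleen only, were thus called lower in each of the other 4 tissues. With the floor at percentile 75 of all signals the counts were 11 and 5 in spleen and 3 and 11 in liver.

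Among receptors, those of B cells and recirculating lymphocytes had the largest splenic differences. On the log2 scale Cxcr5 was higher in spleen by 4.48 (SE 0.24, adjusted p = 1.38e-05), Cxcr4 by 3.68 (SE 0.21, adjusted p = 1.75e-05) and Ccr6 by 3.66 (SE 0.20, adjusted p = 1.59e-05). For each of these 3 genes both spleen arrays exceeded the other 8. Ccr7 read 1231 and 762 units in spleen and lay below the floor on the other 8 arrays, so no test is given for it. Among ligands, Cxcl13 was higher in spleen by 3.48 (SE 0.55, adjusted p = 0.00143), Ccl5 by 3.41 (SE 0.45, adjusted p = 0.000649) and Cxcl10 by 2.52 (SE 0.11, adjusted p = 7.58e-06). Signals below the floor entered the fit at the floor value. Where both ages of a tissue lay below it, the age difference entered as 0. This held for Cxcl10 in the intestine and for Cxcr5 in jejunum, ileum and liver. The SE and p-values of such genes leave out any spread there.

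Epithelial chemokines marked the intestine. Ccl25 was higher in jejunum by 4.86 (SE 0.11, adjusted p = 4.56e-06) and in ileum by 4.99 (SE 0.11, adjusted p = 4.96e-06), with both arrays of each segment far above the other 6. Ccl28, which draws IgA plasma cells through Ccr10, was higher in distal colon by 2.50 (SE 0.16, adjusted p = 8.38e-05), and both colonic arrays exceeded the other 8. Ccl11, the eosinophil attractant eotaxin, was above the floor in the intestine only, and was higher in jejunum by 1.79 (SE 0.08, adjusted p = 4.04e-05), in ileum by 1.52 (SE 0.08, adjusted p = 6.45e-05) and in distal colon by 0.99 (SE 0.08, adjusted p = 0.000256). Liver differed through Cxcl1, a neutrophil attractant, higher by 3.53 (SE 0.27, adjusted p = 6.42e-05), and through Ccl9, a mouse ligand of Ccr1, higher by 2.17 (SE 0.16, adjusted p = 4.81e-05). The Ccl27a signal was also higher there, by 1.61 (SE 0.17, adjusted p = 0.000246). Its only probe set is of a type that can read related transcripts, so this value may not be that of Ccl27a alone.

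**Figure D1:**
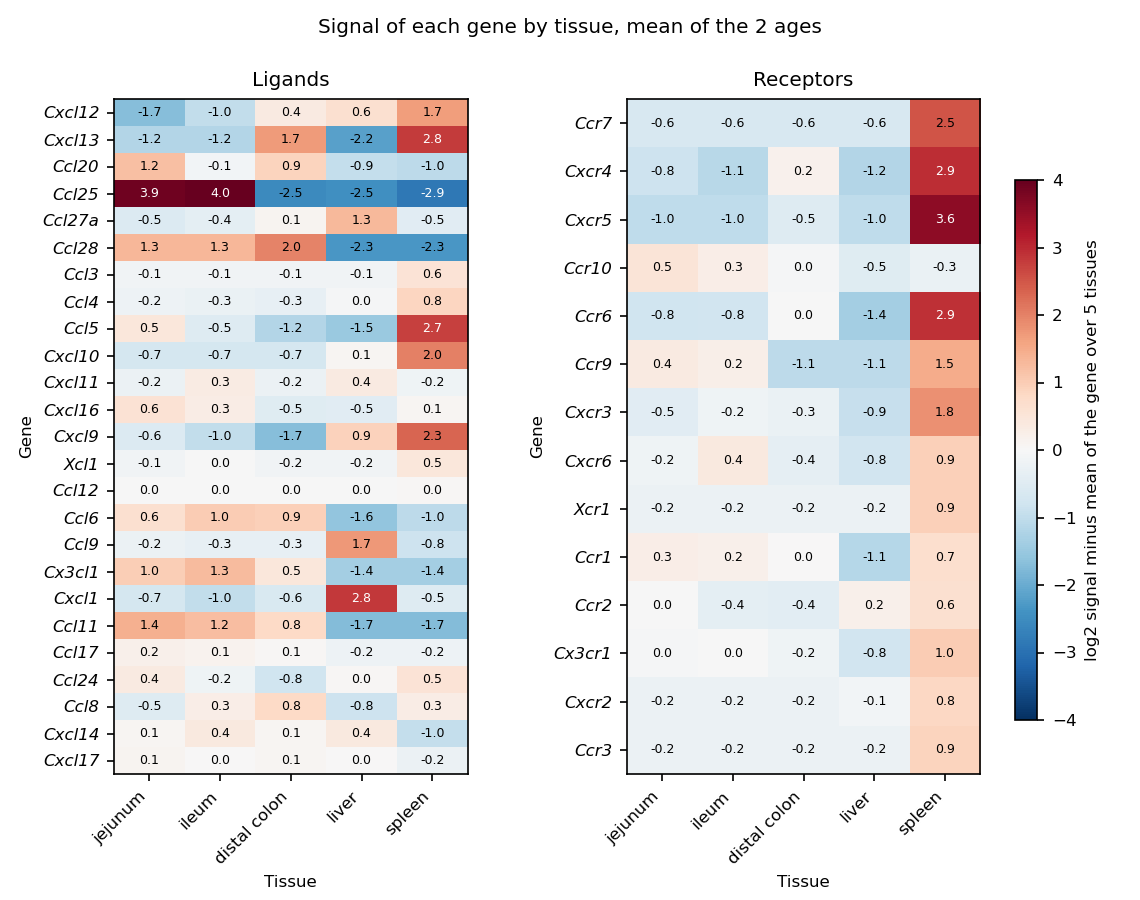
Heat map of each member above the floor on at least 1 array. Each cell gives the log2 signal in a tissue (columns), averaged over the 2 ages after flooring, minus the mean of that gene (rows) over the 5 tissues, for 25 ligands (left) and 14 receptors (right). Of the receptors, 13 are highest in spleen, among them Ccr3, Ccr7 and Xcr1, which were above the floor only there. Ccl25 and Ccl28 are high in the intestine and Cxcl1 and Ccl9 in liver.

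The second comparison asked how the members differed between 28 and 4 months. Of 146 combinations of a measured member and a tissue, 14 rose 2-fold or more and 2 fell. They involved 12 genes, 10 ligands and 2 receptors. In liver 5 ligands rose, Ccl5, Ccl6, Cxcl1, Cxcl13 and Cxcl14, where 1.29% of all measured genes did, and 0 members fell (0.167%). In spleen 4 ligands rose, Ccl3, Ccl4, Ccl5 and Ccl8 (0.528% of all genes), and 0 fell (0.411%). In distal colon Cxcl13, Ccl5 and Cxcr5 rose (0.51% of all genes) and 0 fell (0.526%). In ileum Ccl8 rose (0.888% of all genes) and Ccl24 and Cxcl9 fell (1.66%). In jejunum Ccr9 rose (0.252% of all genes) and 0 fell (1.02%). With the floor at percentile 75 of all signals, the increases of Cxcl13 in distal colon, Ccl6 and Cxcl1 in liver, and Ccl5 and Ccl8 in spleen still passed 2-fold, and the other 11 did not or were no longer measured.

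In distal colon the median log2 ratio of 29 members was 0.31, against 0.03 for all genes. Of the members 23 were above 0 and 6 below, where 6846 of 12360 measured genes were above 0. All 9 measured receptors were above 0, with a median of 0.74. Of these, Ccr2, Cxcr5 and Cxcr6 passed the floor there only at 28 months, so their sign was fixed by that entry. In ileum the median of 31 members was -0.12, against 0.03 for all genes, with 11 above 0 and 20 below. Of all genes measured in ileum, 6737 were above 0 and 5767 below. In distal colon and ileum the direction held under every other floor, scaling and probe set rule tried, with distal colon between 0.25 and 0.37. Medians were 0.08 in jejunum (0.03 for all genes), 0.13 in liver (-0.01 for all genes) and 0.13 in spleen (0.01 for all genes), and with the floor at percentile 75 the liver median was 0.45. In spleen 6 receptors were above 0 and 8 below, with a median of -0.21.

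Values closest to the 2-fold limit show how sharp that limit is. Just inside it lay Ccr9 in jejunum at 1.02, Cxcr5 in distal colon at 1.03 and Cxcl9 in ileum at -1.03. Just outside it lay Ccl8 in liver at 0.96, Ccl5 in ileum at -0.94, Ccr9 in spleen at -0.93, Cxcr4 in distal colon at 0.93 and Ccl20 in distal colon at 0.89.

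Over all 5 tissues, age was tested in the same limma fit, in which the tissues stand in for replicates. No member passed, and 0% of all 13995 genes did. At an unadjusted p under 0.05 there were 4 members, of 928 genes in all. Cxcr3, the receptor of activated T cells for Cxcl9 and Cxcl10, was higher at 28 months by 0.48 on the log2 scale (SE 0.11, 95% confidence interval 0.21 to 0.76), in 5 of 5 tissues, with an adjusted p = 0.716. Ccl8 was higher by 1.26 (SE 0.44, adjusted p = 0.723) in 5 of 5 tissues, and Cxcl13 by 1.12 (SE 0.44, adjusted p = 0.747) in 4 of 5. Ccl17 had a difference of -0.22 (SE 0.08, adjusted p = 0.743). Among the 16 members measured in every tissue, Ccl8 and Cxcr3 were above 0 in all 5 and none was below 0 in all 5. Of all genes measured in every tissue, 6.08% were above 0 and 3.0% below 0 in all 5.

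**Figure D2:**
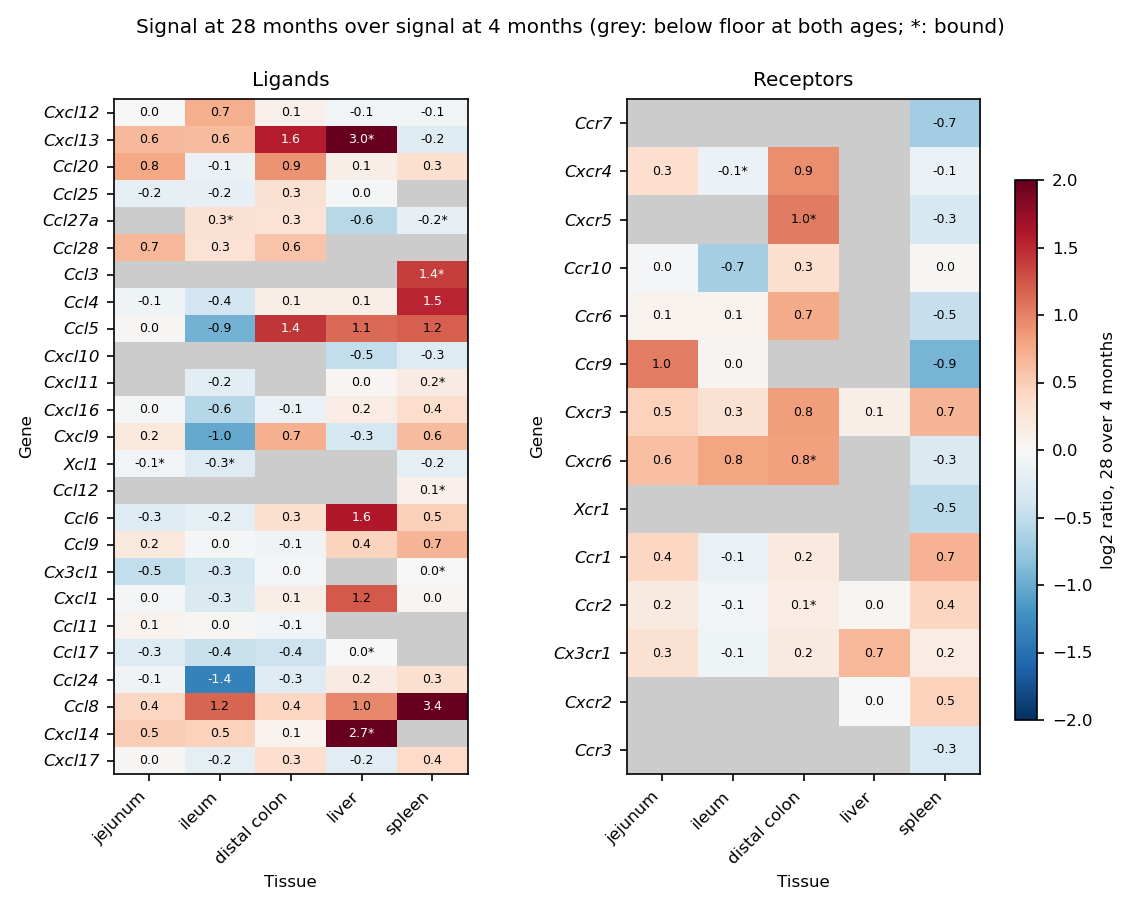
Heat map of the log2 ratio of 28-month to 4-month signal, for 25 ligands (left) and 14 receptors (right) in 5 tissues. Grey cells were below the floor at both ages, an asterisk marks a bound, and colours saturate at a ratio of 2 in either direction. The 9 receptors measured in distal colon are all above 0, of which Ccr2, Cxcr5 and Cxcr6 passed the floor there only at 28 months. Ccl8 in spleen stands at 3.35.

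Among the chemokines that organise lymphoid tissue, Cxcl13 rose in liver and distal colon and not in spleen, its tissue of highest signal. Cxcl13 is made by follicular stromal cells and draws B cells into follicles. Its brightest probe set read 503 and 787 units in jejunum, 506 and 782 in ileum, 2685 and 7984 in distal colon, 84.0 and 877 in liver and 10551 and 8929 in spleen. The 28-month array was thus higher in 4 tissues and lower in spleen. The increase was 2.97-fold in distal colon and at least 7.92-fold in liver, while log2 ratios were 0.64 in jejunum, 0.63 in ileum and -0.24 in spleen. A dimmer probe set gave log2 ratios of 1.61 in distal colon, from 1545 to 4703 units, and 2.04 in liver, from 206 to 845. The size of the hepatic increase therefore differed between probe sets, and its direction did not.

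The 250 bases before the start of Cxcl13 are shown with the TATAAA box in capitals, 46 bases upstream of the start, and lie at chr5:95956689-95956938 on the plus strand (RefSeq, GRCm38.p6).
Cxcl13: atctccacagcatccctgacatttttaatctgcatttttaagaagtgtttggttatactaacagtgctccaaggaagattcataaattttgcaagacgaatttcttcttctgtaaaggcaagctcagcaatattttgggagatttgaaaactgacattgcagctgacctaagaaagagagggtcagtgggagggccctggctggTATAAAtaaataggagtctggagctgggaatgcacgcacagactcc
The letters TATAAA, on either strand, occurred in the same 250 bases of 12.4% of 32851 promoters and in 11 of the 36 members with a promoter in the table, Ccl8, Cxcl9 and Ccl25 among them.

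Cxcr5, the Cxcl13 receptor of B cells and follicular helper T cells, was bright in spleen and appeared in the aged colon. It read 36.2 and 45.5 units in jejunum, 47.7 and 42.7 in ileum, 103 and 227 in distal colon, 40.0 and 46.2 in liver and 3017 and 2412 in spleen. Only the 28-month colon lay above the floor outside spleen, which gives an increase of at least 2.05-fold there and a log2 ratio of -0.32 in spleen. Ligand and receptor both rose in distal colon, whereas in liver Cxcl13 rose and Cxcr5 stayed below the floor at both ages.

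B cell markers moved with Cxcl13 and Cxcr5 in distal colon. Of 10 measured markers, 4 rose 2-fold, among them Ms4a1 (CD20) from 343 to 978 units, and all 10 were above 0, with a summed signal of 2426 units at 4 months and 4823 at 28 months. In liver 0 of 6 rose (summed 1181 and 1482 units). Plasma cell markers rose 2-fold in 3 of 10 cases in distal colon (summed 57073 and 70906 units) and in 3 of 7 in liver (23804 and 26681 units), where Jchain went from 99.6 to 1543 units and Igha from 151 to 1581. In spleen all 11 B cell markers were below 0 with none past 2-fold (60881 and 47928 units). Markers of follicular dendritic and fibroblastic reticular cells in distal colon had 0 of 6 past 2-fold and summed 9611 and 12580 units. Smooth muscle genes there had 0 of 8 past 2-fold and summed 104334 and 73408 units. Their part in the Cxcl13 and Cxcr5 values was not tested.

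**Figure D3:**
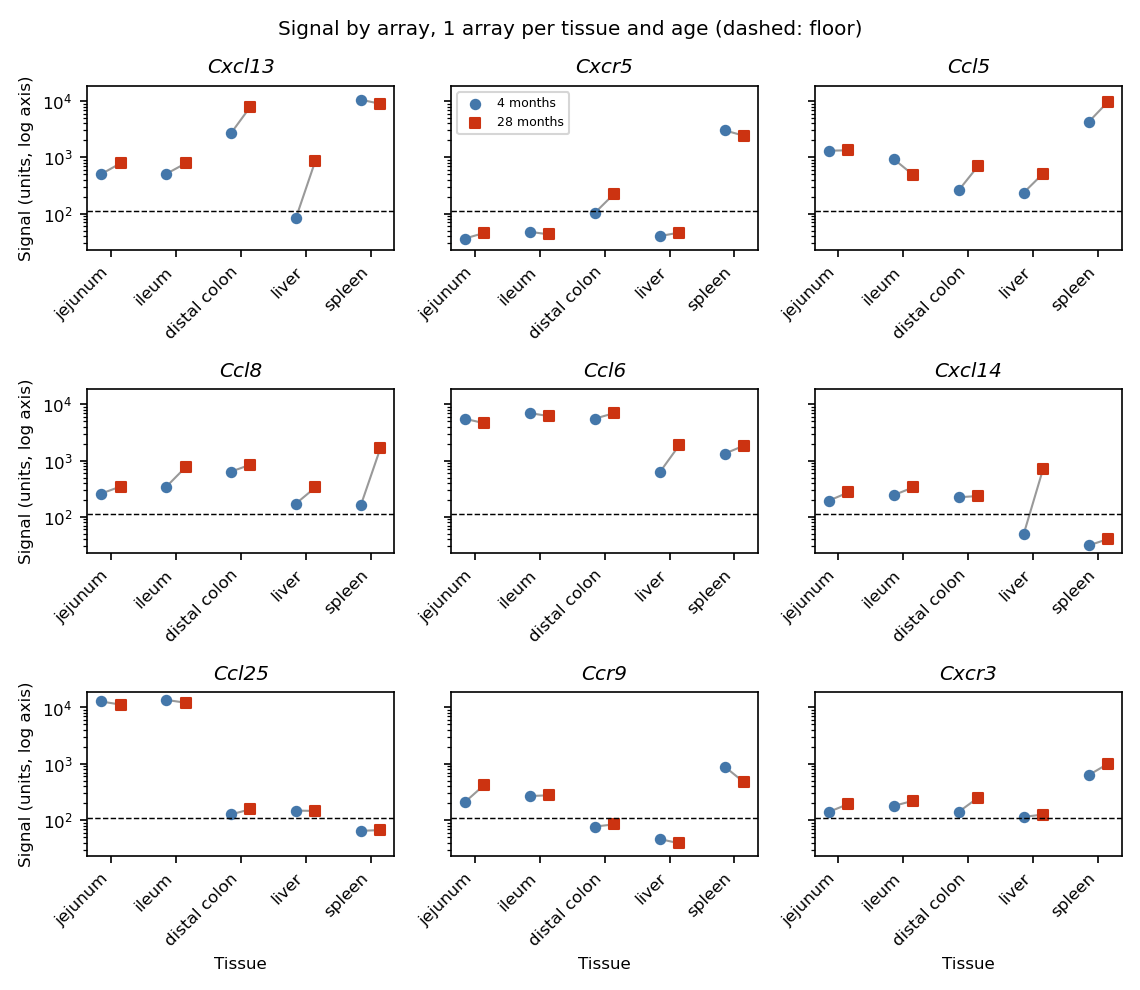
Signal of 9 members on each of the 10 arrays (log axis, arbitrary units), with 4 months as circles and 28 months as squares joined within a tissue, and the floor of 111 units as a dashed line. Each point is 1 array of pooled RNA. Cxcl13 and Cxcl14 cross the floor in liver, Cxcr5 crosses it in distal colon, and Ccl8 in spleen goes from 163 to 1662 units.

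Cxcl12, the stromal ligand of Cxcr4 that retains leukocytes in marrow and lymphoid tissue, did not reach 2-fold in any tissue by its brightest probe set. It read 908 and 903 units in jejunum, 1163 and 1922 in ileum, 3688 and 3944 in distal colon, 4693 and 4527 in liver and 9480.5 and 9139.9 in spleen, with the ileal ratio of 0.72 furthest from 0. A dimmer probe set gave 236 and 486 units in jejunum, a log2 ratio of 1.04, and 257 and 458 in ileum, a ratio of 0.83. The dimmest gave 178 and 186 units in jejunum, a ratio of 0.07, and 153 and 145 in ileum, a ratio of -0.08. The probe sets thus differed in size in jejunum and in direction in both segments. Cxcr4 read 125 and 158 units in jejunum, 119.6 and 95.4 in ileum, 201 and 383 in distal colon, 54.8 and 82.7 in liver and 1991 and 1832 in spleen. Its colonic ratio was 0.93, and both colonic arrays lay apart while those of spleen nearly coincided. Ccr7, which brings T cells and dendritic cells into lymph nodes, was above the floor in spleen only, with 1231 and 762 units and a ratio of -0.69. By their brightest probe sets, all 5 lymphoid-homing members in spleen had ratios below 0, where 5736 of 11925 measured genes did. Those of Cxcl12 (-0.05) and Cxcr4 (-0.12) lay within the median SD between probe sets of 0.14. The dimmest Cxcl12 probe set gave 0.32 in spleen, from 121 to 150 units.

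Of the chemokines that bring lymphocytes to mucosa, the ligands stayed short of 2-fold and only the receptor Ccr9 passed it. Ccl25, made by the small intestinal epithelium and the thymus, read 12791 and 11267 units in jejunum, 13651 and 12162 in ileum, 126 and 156 in distal colon, 148 and 145 in liver and 64.5 and 66.6 in spleen. Its ratios were -0.18 and -0.17 in the small intestine, where it is bright, short of 1.5-fold. Ccr9, its receptor on gut-homing T cells and IgA cells, read 209 and 423 units in jejunum, 268 and 277 in ileum, 76.9 and 84.1 in distal colon, 46.0 and 38.8 in liver and 888 and 467 in spleen.

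The Ccr9 probe set thus rose 2.03-fold in jejunum and had a log2 ratio of -0.93 in spleen, so that the jejunal array was the dimmer one at 4 months and came close to the splenic one at 28 months. The second Ccr9 probe set gave ratios of 0.22 in jejunum, from 118 to 137 units, and -0.72 in spleen, from 217 to 132. The jejunal increase therefore rests on 1 of 2 probe sets, of a type that can read related transcripts, whereas both lay below 0 in spleen. Plasma cell markers in jejunum rose 2-fold in 3 of 10 cases, with a summed signal of 80669 and 105230 units, and T cell markers in 0 of 7, with 1875 and 2162 units. Their part in the Ccr9 value was not tested.

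Ccl28, secreted by mucosal epithelium, read 1112 and 1769 units in jejunum, 1251 and 1521 in ileum, 1817 and 2696 in distal colon, 109 and 100.1 in liver and 78.4 and 91.9 in spleen. The 28-month array was the higher in all 3 intestinal segments, with ratios of 0.67, 0.28 and 0.57, none past 2-fold. A dimmer probe set gave 0.10 in jejunum, 0.07 in ileum and 0.65 in distal colon, so only the colonic size recurred. Ccr10 read 222 and 219 units in jejunum, 236 and 148 in ileum, 135 and 169 in distal colon, 94.8 and 93.4 in liver and 126 and 128 in spleen. Its ileal ratio of -0.67 ran against that of Ccl28. Ccl27a, another Ccr10 ligand known mainly from skin, was brightest in liver by its only probe set, with 480.5 and 327 units, a ratio of -0.56. It had at most 194 units elsewhere.

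Ccl20, an epithelial chemokine over lymphoid follicles, read 454 and 778 units in jejunum, 250.0 and 229.8 in ileum, 352 and 655 in distal colon, 129 and 139 in liver and 112 and 139.9 in spleen. Its ratios were 0.78 in jejunum and 0.89 in distal colon, and -0.12 in the ileum between them. Ccr6, its receptor on B cells and Th17 cells, read 160.1 and 168 units in jejunum, 164 and 173 in ileum, 215 and 359 in distal colon, 91.4 and 102 in liver and 2535 and 1849.5 in spleen. The colonic pair had ratios of 0.89 and 0.74, while in spleen Ccr6 had -0.45.

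The chemokines of effector lymphocytes gave the most widespread change, through Ccl5. Ccl5, made by activated T cells and natural killer cells and read by Ccr1 among other receptors, rose in distal colon, liver and spleen. It read 1313 and 1336 units in jejunum, 935 and 488 in ileum, 259.7 and 703 in distal colon, 235 and 516 in liver and 4229 and 9730.5 in spleen. The increases were 2.71-fold in distal colon, 2.30-fold in spleen and 2.19-fold in liver. The jejunal arrays differed by 0.03 on the log2 scale, and the ileal ratio was -0.94.

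Ccl3 and Ccl4, related attractants made by macrophages and activated lymphocytes, rose in spleen. Ccl3 was above the floor on the 28-month spleen array only, with 90.3 and 287 units there, an increase of at least 2.59-fold. Ccl4 read 202 and 190.3 units in jejunum, 214 and 164 in ileum, 169.8 and 186 in distal colon, 208 and 227 in liver and 239 and 684 in spleen. It rose 2.87-fold in spleen, and its ratios elsewhere lay between -0.38 and 0.13.

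Cytotoxic lymphocyte markers did not move as a block in spleen. There Gzmk went from 105 to 1008 units and Gzmb also rose, while Gzma went from 2539 to 327 units and Ncr1 also fell, and the 9 markers summed to 6616 and 5818 units. In ileum 0 of 7 rose and 2 fell, Gzma and Gzmb, with all 7 below 0 and sums of 3439 and 1943 units. T cell markers in distal colon rose in 3 of 6 cases, namely Il7r, Cd3g and Cd3d, with sums of 1161 and 2129 units. The part of these cells in the Ccl5, Ccl3 and Ccl4 values was not tested.

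Cxcl9, Cxcl10 and Cxcl11 are interferon-induced ligands of Cxcr3. Cxcl9 read 293 and 340.4 units in jejunum, 334 and 164 in ileum, 113 and 184 in distal colon, 999 and 785 in liver and 1869 and 2906 in spleen. It fell 2.04-fold in ileum, while its ratios were 0.70 in distal colon and 0.64 in spleen. Cxcl10 was measured in liver, with 225 and 159.5 units, and in spleen, with 794 and 666, and both ratios lay below 0, at -0.50 and -0.25. Cxcl11 was at most 176 units on any array.

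Cxcr3 read 139.7 and 193 units in jejunum, 179 and 221 in ileum, 140.1 and 250.4 in distal colon, 114 and 125 in liver and 628 and 1004 in spleen. The 28-month array was the higher in each tissue, with ratios from 0.13 in liver to 0.84 in distal colon. Cxcl9 and Cxcr3 lay on opposite sides of 0 in ileum and liver, and on the same side in jejunum, distal colon and spleen. Cxcl10 lay opposite to Cxcr3 in liver and spleen. Cxcl11 lay opposite to Cxcr3 in ileum and on the same side in liver and spleen.

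Cxcl16, a membrane-anchored ligand, and its receptor Cxcr6, carried by tissue-resident T cells and natural killer T cells, diverged in ileum. Cxcl16 read 1072 and 1052 units in jejunum, 1069 and 723 in ileum, 531 and 485 in distal colon, 491 and 546 in liver and 673 and 859 in spleen. Cxcr6 read 136 and 208 units in jejunum, 189 and 327 in ileum, 91.2 and 195 in distal colon, 57.8 and 64.7 in liver and 403 and 329 in spleen. By the brightest probe sets, the ileal ratios were -0.56 for the ligand and 0.79 for the receptor. Dimmer probe sets gave -0.23 for Cxcl16 and a bound of 0.77 for Cxcr6 there. In liver the Cxcl16 probe sets differed in size, at 0.15 for the brightest and 0.97 for the dimmer, from 177 to 347 units. Cxcr6 was higher at 28 months in all 3 intestinal segments, by 0.61, 0.79 and at least 0.82, and had a ratio of -0.29 in spleen, where a dimmer probe set gave -0.59. Xcl1 and Xcr1, a pair that links cytotoxic lymphocytes to cross-presenting dendritic cells, had splenic ratios of -0.20 and -0.54.

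Of the chemokines of monocytes and macrophages, Ccl6 rose in liver alone. Ccl6, a mouse myeloid chemokine read by Ccr1, gave 5521 and 4609 units in jejunum, 6965 and 6154 in ileum, 5559 and 6963 in distal colon, 621 and 1876 in liver and 1328 and 1850.2 in spleen. The hepatic increase was 3.02-fold, and a dimmer probe set went from 228 to 954 units, a log2 ratio of 2.07. Ccl9, its close relative, read 728 and 839 units in jejunum, 734 and 720.1 in ileum, 756 and 721 in distal colon, 2618 and 3569 in liver and 406 and 649 in spleen. Its ratios were 0.45 in liver and 0.68 in spleen, with the intestinal pairs close together.

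Ccr1 read 256 and 342 units in jejunum, 297 and 269.9 in ileum, 231 and 264 in distal colon, 42.8 and 99.6 in liver and 306 and 494 in spleen. It stayed below the floor in liver, the tissue where Ccl6 rose, and had a ratio of 0.69 in spleen. Ccr2, the receptor of inflammatory monocytes, had its largest ratio in spleen by its brightest probe set, at 0.42, from 209 to 281 units. The other splenic probe sets of Ccr2 above the floor gave 0.07 and -0.30, so its direction is uncertain. By their brightest probe sets, all 7 measured members of the monocyte group in spleen were above 0, where 6189 of 11925 measured genes were. Their median was 0.42, the value of Ccr2, and none was past 2-fold. Besides the uncertain Ccr2, the values of Ccl12 (0.10) and Cx3cl1 (0.01) were bounds from 28-month signals of 119 and 112 units, near the floor.

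Macrophage markers rose 2-fold in liver in 4 of 11 cases, among them Marco, C1qb and Lyz2, and summed to 12480 and 24004 units. In spleen 0 of 9 rose, with sums of 62631 and 63534 units. Their part in the Ccl6 value was not tested.

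Cx3cl1, a membrane-anchored ligand of epithelium and endothelium, read 674 and 479 units in jejunum, 766 and 604 in ileum, 395 and 388 in distal colon, 108 and 92.8 in liver and 87.8 and 112 in spleen. Its receptor Cx3cr1, on intestinal macrophages and patrolling monocytes, read 308 and 379 units in jejunum, 360.3 and 339 in ileum, 289.5 and 329 in distal colon, 163 and 257 in liver and 671 and 747 in spleen. By the brightest probe sets, the ligand had a ratio of -0.49 in jejunum and the receptor 0.30. In liver the receptor had 0.66, with the ligand below the floor. A dimmer Cx3cl1 probe set gave -0.02 in jejunum, from 280 to 276 units. It was above the floor in liver, with 190 and 167 units, so both statements on the ligand rest on its brightest probe set.

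Ccl8 rose in spleen and ileum. In the mouse it acts through Ccr8 and attracts type 2 helper T cells and eosinophils to inflamed sites. It read 259 and 346 units in jejunum, 339.9 and 761 in ileum, 636 and 848 in distal colon, 172 and 335 in liver and 163 and 1662 in spleen. The 28-month array was the higher in every tissue, and Ccl8 rose 10.2-fold in spleen and 2.24-fold in ileum. Ratios were 0.42 in jejunum, 0.41 in distal colon and 0.96 in liver. Spleen was among its dimmest tissues at 4 months and its brightest at 28 months. Ccr8 lay below the floor on every array, so the receptor gave no ratio.

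The 250 bases before the start of Ccl8 also hold a TATAAA box, in capitals, 32 bases upstream of the start, at chr11:82114935-82115184 on the plus strand (RefSeq, GRCm38.p6).
Ccl8: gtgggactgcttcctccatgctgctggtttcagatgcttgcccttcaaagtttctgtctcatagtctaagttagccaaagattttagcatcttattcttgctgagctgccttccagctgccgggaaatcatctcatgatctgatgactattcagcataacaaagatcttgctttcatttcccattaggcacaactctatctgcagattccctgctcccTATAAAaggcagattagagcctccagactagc
Cxcl13 and Ccl8 thus share these letters, which is a description of the sequence.

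Neutrophil markers rose 2-fold in 6 of 8 cases in spleen, including Mpo, Ngp and Ltf, with sums of 16643 and 42170 units, while macrophage sums there were nearly level. Pancreatic acinar genes fell 2-fold in 6 of 6 cases in spleen. The part of either in the splenic Ccl8, Ccl3, Ccl4 and Ccl5 values was not tested.

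The eosinophil attractants did not move together. Ccl11 read 957 and 1009 units in jejunum, 843 and 855 in ileum and 644 and 619 in distal colon, and lay below the floor in liver and spleen. All 3 intestinal pairs were close. Ccl24, eotaxin-2, read 522 and 499.6 units in jejunum, 562 and 220.1 in ileum, 249 and 207 in distal colon, 381 and 427 in liver and 516 and 643 in spleen, and fell 2.55-fold in ileum. Smooth muscle genes in ileum were all above 0, 1 of 8 past 2-fold, and summed 25204 and 41628 units, and their part in the ileal values of Ccl24, Ccl8, Cxcl9 and Cxcl12 was not tested. Ccr3, the eosinophil receptor of both eotaxins, was above the floor in spleen only, with 265 and 215 units. Ccl17, a ligand of Ccr4 made by dendritic cells, had ratios of -0.26 in jejunum, -0.45 in ileum and -0.41 in distal colon, with at most 164 units on any array.

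In liver the neutrophil attractant Cxcl1 rose. It read 245 and 242 units in jejunum, 224 and 184 in ileum, 250.4 and 275 in distal colon, 1861 and 4339 in liver and 274 and 284 in spleen. Liver was brighter than the other tissues at both ages, and the increase was 2.33-fold. The other probe sets gave hepatic ratios of 1.45, from 1036 to 2835 units, and 0.64, from 938 to 1460.0, so that all 3 lay above 0 and 2 passed 2-fold. The probe set that read 1036 and 2835 units lay below the floor on every array outside liver. The brightest and the remaining probe set are of types that can read related transcripts. Signals outside liver may therefore not be those of Cxcl1 alone. Cxcr2, its receptor on neutrophils, read 119.9 and 119 units in liver and 197 and 271 in spleen, with ratios of -0.01 and 0.46. Neutrophil markers in liver rose in 3 of 8 cases, S100a8, S100a9 and Ngp, and summed to 865 and 2404 units. Their part in the Cxcl1 value was not tested.

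Cxcl1 and Cxcl2 are neighbours that encode related neutrophil attractants, yet Cxcl2 lay below the floor on every array. Their upstream bases are shown because both hold matches to GGNNTTTCC, a short form of the NF-kB motif, in capitals (RefSeq, GRCm38.p6, plus strand). Cxcl1 spans chr5:90890995-90891244 with matches 89 and 70 bases before the start, and Cxcl2 spans chr5:90903649-90903898 with matches 96 and 77 bases before it.
Cxcl1: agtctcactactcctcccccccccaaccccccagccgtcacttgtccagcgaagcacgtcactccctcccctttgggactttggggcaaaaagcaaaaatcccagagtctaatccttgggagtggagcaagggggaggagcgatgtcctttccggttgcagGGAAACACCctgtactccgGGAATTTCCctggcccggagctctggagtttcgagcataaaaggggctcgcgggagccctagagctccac
Cxcl2: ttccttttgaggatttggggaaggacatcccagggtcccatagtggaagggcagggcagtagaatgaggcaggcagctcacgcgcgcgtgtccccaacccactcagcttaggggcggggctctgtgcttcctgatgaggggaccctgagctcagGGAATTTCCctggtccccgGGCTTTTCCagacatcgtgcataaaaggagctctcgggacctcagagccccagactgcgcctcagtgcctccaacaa
This motif, on either strand, occurred in 4.93% of 32851 promoters and in 8 of 36 members with a promoter in the table, namely Ccl9, Ccl20, Ccr3, Cxcl1, Cxcl2, Cxcl3, Cxcl9 and Cxcl10. Of these, Cxcl1 rose 2-fold in liver, Cxcl9 fell 2-fold in ileum, and Cxcl2 and Cxcl3 were below the floor throughout. The motif GAAANNGAA, known from interferon response elements, occurred in 7.13% of promoters and in 6 of the 36 members, Ccl1, Ccl3, Ccr2, Cxcl9, Cxcl10 and Cxcl14. The same letters can be part of more than 1 motif, and the 3 motifs were searched on both strands.

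Cxcl14, an epithelial chemokine that has no receptor among the members, read 194 and 272 units in jejunum, 243 and 335 in ileum, 224 and 235 in distal colon, 48.8 and 708 in liver and 31.1 and 40.5 in spleen. It went from below the floor to well above it in liver, an increase of at least 6.40-fold. A dimmer probe set went from 90.0 to 164 units there, a bound of 0.57 on the log2 scale, and the ratios of the 2 probe sets had an SD of 1.49. The size of this increase is thus uncertain. Cxcl17, a chemokine of mucosal epithelium, had at most 185 units on any array and no 2-fold change.

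**Figure D4:**
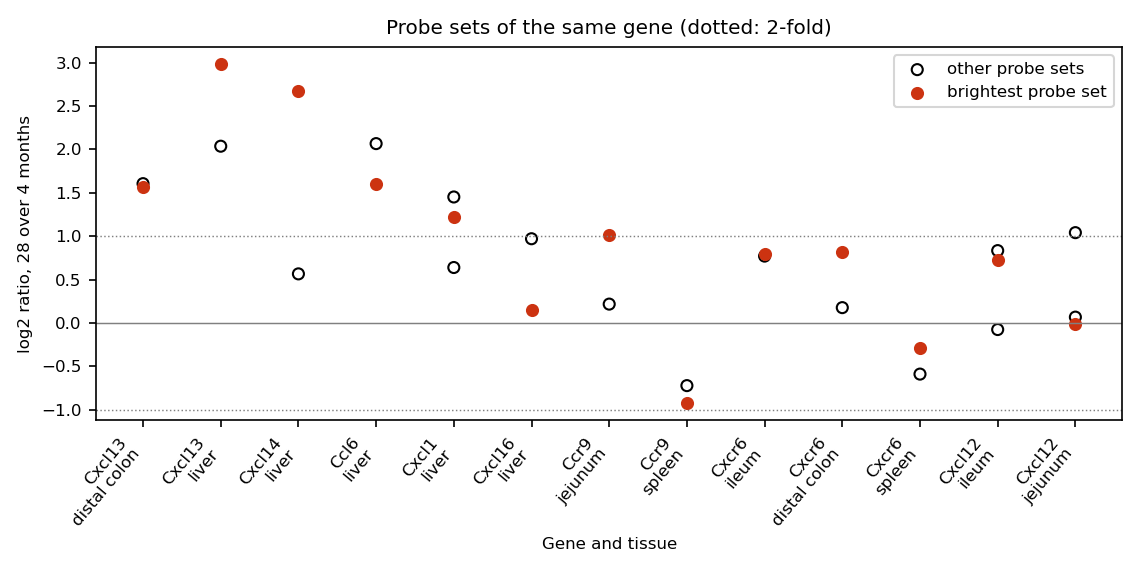
Log2 ratios of 28 over 4 months for every measured probe set of 8 members in selected tissues, with the brightest probe set filled and dotted lines at 2-fold. The genes and tissues were chosen after their values were seen. Probe sets lay close for Cxcl13 in distal colon (1.57 and 1.61) and apart for Cxcl14 in liver (bounds of 2.68 and 0.57) and for Ccr9 in jejunum (1.02 and 0.22).

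Ligands and receptors were then set side by side as 32 textbook pairs. In 20 pairs both partners were above the floor on an array, in 9 a partner lay below it everywhere, and in 3 the receptor is no member. Ligand and receptor had the same tissue of highest signal in 9 of the 20, spleen each time. The receptor was highest in spleen in 18 of the 20. Ccr3, Xcr1, Ccl3 and Ccl12, above the floor in spleen only, could have no other tissue of highest signal. In 54 combinations of a pair and a tissue both partners were measured, and 29 of these had ratios of the same sign. Both partners differed by 1.5-fold or more in the same direction in 7 combinations. These were Ccl20 with Ccr6, Cxcl13 with Cxcr5 and Cxcl9 with Cxcr3 in distal colon, and Ccl3, Ccl5 and Ccl9 with Ccr1 and Cxcl9 with Cxcr3 in spleen, all higher at 28 months. Pairs share receptors, so these counts are not of independent cases. No share over pairs of other genes stands beside them, so they show no excess of pairs moving together.

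Other genes of the pathway, a list of 30 of which 29 were matched, hold atypical receptors that remove chemokines, G protein subunits and kinases of the signal, and the integrins that arrest cells. In liver 4 of 23 measured rose 2-fold, where 1.29% of all genes did. They were the integrin chain Itgb2, from 249 to 677 units, the signalling regulator Rgs1, from 128 to 327, the endothelial adhesion molecule Vcam1, from 543 to 1175, and the actin regulator Coro1a. In distal colon 1 of 28 rose, the GTPase Rac2, from 400 to 816 units. In jejunum, ileum and spleen 0 of 26, 0 of 27 and 0 of 26 rose, and none fell in any tissue. Ackr3, which scavenges Cxcl12, read 355 and 561 units in jejunum, 344 and 522 in ileum, 1212 and 1117 in distal colon and 2483 and 1941 in spleen. Of a list of cytokines and transcription factors that induce chemokines, 1 gene rose in any tissue, Ltb, a lymphotoxin chain that supports follicles, from 525 to 1107 units in distal colon. No gene of either list passed the limma test of age over the tissues.

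Many members lie next to each other in the genome, which was read from RefSeq gene order (GRCm38.p6). With gaps of at most 500 kb, 28 members fell into 6 clusters of at least 3. In the cluster of Ccl5, Ccl9, Ccl6, Ccl3 and Ccl4 on chromosome 11, all 5 genes had ratios above 0 in spleen and 3 rose, Ccl5, Ccl3 and Ccl4. Of all genes measured in spleen, 6189 of 11925 were above 0 and 0.528% rose. Ccl3 passed the floor there only at 28 months, so its direction was fixed by that entry. In liver all 4 measured genes of the cluster were above 0 and 2 rose, Ccl5 and Ccl6. Of all genes measured in liver, 5602 of 12001 were above 0 and 1.29% rose. In ileum all 4 measured genes of the cluster were below 0, where 5767 of 12504 measured genes were. No count over clusters of other genes was made. In the other chromosome 11 cluster, of Ccl2, Ccl7, Ccl11, Ccl12, Ccl8 and Ccl1, Ccl8 alone rose, and Ccl1, Ccl2 and Ccl7 were below the floor throughout. On chromosome 5 Cxcl1 was measured and its neighbours Cxcl2, Cxcl3, Cxcl5 and Cxcl15 were not.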

How the data were processed

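Jejunum, ileum, distal colon, liver and spleen of male mice at 4 and 28 months were each read on 1 Affymetrix mouse expression array of pooled RNA, per the labels' protocols. The values deposited by the authors are log2 signals, 1 per probe set, with lowest and highest values of 2.71 and 14.8; the base of the logarithm was taken from this range. MAS5 and affy are named per the submitters' processing notes, without version or role, and the sources used here do not say how arrays were normalised. Array medians lay between 5.42 and 5.52 on the log2 scale.

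Values were un-logged, and each array was scaled to a mean of 500 after trimming 2% at each end (factors 2.42 to 2.57). The floor, the median of all signals, was passed by 48.9% to 50.9% of probe sets per array. A gene was represented by the probe set with the highest mean signal. Of 45101 probe sets, 932 named several genes and 9211 were not in the annotation. Arrays carry no counts, so their number limits the precision, and p-values measure the spread of the age difference between tissues. Tissue and age were fitted with limma 3.58.1 (lmFit, eBayes with trend) in R 4.3.3, with genes above the floor on at least 1 array and an adjusted p threshold of 0.05. The steps ran in Python 3.11.15 with numpy 2.4.6, pandas 2.3.3, statsmodels 0.14.6 and matplotlib 3.10.9, and were tested on simulated data.

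The members, lists and motifs were chosen with earlier results of these data known. Any member may be named, and signals on all arrays are given for members past 2-fold in a tissue and their partners and for the homing pairs. Up to 3 genes of a list past 2-fold are named, by size of ratio, and others named were chosen after their values were seen. The lists were other chemokine pathway genes, genes that induce chemokines, and markers of B, plasma, T and cytotoxic cells, macrophages, dendritic cells, neutrophils, follicular stroma, enterocytes, ileum, distal colon, hepatocytes, pancreatic acini, smooth muscle and endothelium. All 49 members matched RefSeq by gene identifier. Alternatives were other floors, scalings, probe set rules and fold thresholds, limma without trend, and leaving out tissues.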

Additional observations from a re-analysis of the deposited data

Results flagged for a closer look

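The age ratios of 3 members had opposite directions in different tissues, each with at least 1 value past 2-fold. With 1 array per group these differences between tissues were not tested. Ccl5 had log2 ratios of 1.44 in distal colon, 1.20 in spleen and 1.13 in liver against -0.94 in ileum. Ccr9 had 1.02 in jejunum against -0.93 in spleen, and its second probe set gave 0.22 and -0.72. Cxcl9 had -1.03 in ileum against 0.70 in distal colon and 0.64 in spleen. In ileum the cytotoxic lymphocyte markers summed to 3439 units at 4 months and 1943 at 28 months, and the enterocyte markers to 157813 and 50812 units, and their part in the Ccl5 and Cxcl9 values was not tested.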

How the results depend on the processing

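No paired analysis was possible because there was 1 array per group, without replicate numbers in the labels, beyond the pairing of ages by tissue that the limma test of age already holds. Of 250 alternative counts and medians, 216 stayed within 1.5 times a reported count, or within the median SD between probe sets of a reported median, and 34 did not. With the floor at percentile 75, 2-fold counts were 0 higher in jejunum, 0 higher and 0 lower in ileum, 2 higher in liver, 2 in spleen and 1 in distal colon, and the liver median was 0.45. Members differing from the other tissues were then 4 higher and 7 lower in jejunum, 3 higher in distal colon, 3 higher and 11 lower in liver and 11 higher and 5 lower in spleen. At 1.5-fold, 5 members were higher in jejunum, 4 higher and 4 lower in ileum, 9 higher in distal colon, and 8 higher and 2 lower in spleen. At 3-fold the counts were 0 in jejunum, 0 and 0 in ileum, 3 in liver, 1 in spleen and 0 in distal colon. Lowess, quantile normalisation, equal medians, removal of _s_at and _x_at probe sets, and no floor with 16 units added each left 0 members higher in jejunum. The median over probe sets and no floor each left 1 lower in ileum, and no floor gave a spleen median of 0.29. A higher floor and a higher fold threshold lower counts by construction, and otherwise the cause was not tested.

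The 16 ratios past 2-fold had 123 alternatives with a value, of which 108 were still past 2-fold and none reversed, and 5 more gave no value because the gene was no longer measured. With the floor at percentile 75 the ratios lost were Ccl24 and Ccl8 in ileum (-0.22 and 0.66), Ccl4 in spleen (0.51), Ccl5 in distal colon and liver (0.55 and 0.10), and Cxcl13 and Cxcl14 in liver (0.87 and 0.56), and Ccl3 in spleen, Ccr9 in jejunum, Cxcl9 in ileum and Cxcr5 in distal colon were no longer measured. Cxcl14 and Cxcl13 in liver passed Ccl8 in spleen with the floor at percentile 25 (3.85 and 3.38 against 3.35). Ccr9 in jejunum was as low as 0.22, Cxcl9 in ileum as close to 0 as -0.51, and Cxcr5 in distal colon 0.97 after quantile normalisation. Ccl8 in spleen ranged from 1.79 to 3.41. The test of age called 0 members under every setting run for it, lowess not being among them, and with each tissue left out, with lowest adjusted p-values of members from 0.479 to 0.910 (limma). Signals near the floor limit what can be seen of the dim receptors.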
